A study of Mus musculus with 14 samples.

Results

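Potassium channel genes were taken as all genes whose symbol on the array starts with Kcn, which gave 91 members among 23152 genes. They cover the pore-forming subunits, their auxiliary proteins and 2 genes that encode no channel subunit, Kcnq1ot1 and Kcnrg. Gene expression was measured on 14 Affymetrix whole-transcript arrays in cultured neural stem cells of the subventricular zone, taken from mice on postnatal day 4. Each of the 7 cultures, called clones, was set up from 1 animal and transduced with adenovirus carrying Cre recombinase. Clones 5 to 7 were Cic-/-, given in the labels as conditional knockouts of genotype Cicflox/flox, and clones 1 to 4 were wild-type controls (Cic+/+). Cic encodes capicua, a transcriptional repressor that receptor tyrosine kinase signalling relieves. Every clone spent 24 h in proliferation medium that held EGF and, as a separate culture, 24 h in the same medium lacking EGF, so the groups were Cic-/- with EGF, Cic-/- without EGF, Cic+/+ with EGF and Cic+/+ without EGF. These are cultures in which Cre acted in the dish, so the values describe cultured stem cells and not the intact tissue, and each clone is 1 animal.

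Potassium channels set the resting membrane potential and repolarise cells after depolarisation. Voltage-gated (Kv), calcium-activated, inwardly rectifying (Kir) and 2-pore leak (K2P) families assemble from different pore-forming subunits, and auxiliary proteins alter their gating and their transport to the membrane. In neural stem cells and glia, Kir and K2P channels hold the membrane near the potassium equilibrium potential, and several Kv and calcium-activated subunits are better known from neurons.

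Each gene took the median of the probesets that name it alone, on the log2 scale of RMA, the normalization that the submitters used. The members were read by 804 such probesets, with a median of 6 per gene and a range of 1 to 32. Probesets differ in brightness, so levels are compared between arrays and never between genes. A member counted as above the limit where its mean over the 14 arrays exceeded 4.40, the level below which the lowest 25% of all genes lie. In all, 84 of the 91 members did so, and Kcna5, Kcnj1, Kcnj13, Kcnrg, Kcnt2, Kcnu1 and Kcnv2 did not. The members nearest the limit were Kcnip2, just above it at 4.403, and Kcna5, just below it at 4.385. Of the 84, 73 had a mean above the limit in all 4 groups, 7 in 3 groups and 4 in 2 groups. The 84 were selected partly by being high in some group, and counts over them are given beside the same counts over all 17364 genes above the limit.

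The arrays had medians from 6.49 to 6.54 and correlated with each other between 0.930 and 0.973, and their number limits the precision. Cic lay between 7.04 and 7.67 in the Cic-/- arrays and between 9.18 and 9.69 in the Cic+/+ arrays. All 10 of 10 stem cell and radial glia markers, among them Nes and Sox2, were above the limit, as were 17364 of all 23152 genes. So were all 7 astrocyte, 6 oligodendrocyte progenitor, 8 myelinating oligodendrocyte and 6 neuron markers. Of the 6 microglia markers 5 were above it and Aif1 below, and of the 6 endothelial and pericyte markers 5 were above it and Cldn5 below. These counts do not show which cell types the cultures held. Clone 4 stood apart in Xist, a transcript of the inactive X chromosome, with at most 4.73, against at least 11.96 in the other clones.

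Changes are limma log2 differences ± SE, and a call needed an adjusted p under 0.05 (Benjamini-Hochberg over 17364 genes). Without a block the model holds 4 group means. Since both arrays of a clone come from the same animal, the comparisons were also fitted with the clone as a random block. In bulk RNA, fewer cells of a type and less RNA per cell cannot be told apart.

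Few potassium channel genes passed between the genotypes, with 3 Cic-/- and 4 Cic+/+ clones to compare. With EGF, 0 of 84 members passed in limma, beside 0.317% of all genes, with 12 members at an unadjusted p under 0.05 (14.3%, beside 10.6% of all genes). Without EGF 1 of 84 passed, beside 0.553% of all genes, and this was Kcnma1, the pore-forming subunit of the large-conductance calcium-activated (BK) channel, which was 2.57-fold higher in Cic-/-. There 14 members had an unadjusted p under 0.05 (16.7%, beside 10.8% of all genes). With the clone as a block the same members were called, 0 with EGF (beside 0.363% of all genes) and Kcnma1 without EGF (beside 0.697%). The median change over the members was 0.10 with EGF and 0.05 without, beside 0.02 and -0.00311 over all genes. With EGF, 13 members had no overlap between the genotypes, beside 11.7% of all genes, and of these 11 were higher in Cic-/- (beside 5.81% of all genes) and 2 lower (beside 5.91%). Without EGF this held for 10 members, beside 9.38% of all genes, with 5 higher (beside 4.20%) and 5 lower (beside 5.18%). In both media it held for 1 member higher in Cic-/-, Kcnma1 (beside 1.13% of all genes), and 1 lower, Kcnn4 (beside 1.55%), which is close to the share over all genes.

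Few members passed with EGF. Kcnip1, an EF-hand protein that binds Kv4 channels and alters their gating, rose 3.45-fold in Cic-/- and 2.70-fold in Cic+/+. Kcnmb1, a beta subunit of the BK channel, passed in Cic-/- with a fitted difference of 3.03-fold, against a level without EGF that lay under the limit. Its brightest probeset differed by 0.01 ± 0.25 there (adjusted p = 0.996). These were the members that passed without a block, 2 of 84 in Cic-/- beside 0.190% of all genes and 1 of 84 in Cic+/+ beside 0.898% of all genes. With the clone as a block 6 of 84 members passed in Cic-/- (7.14%, beside 2.08% of all genes) and 7 of 84 in Cic+/+ (8.33%, beside 5.17% of all genes). In Cic-/- these were Kcnip1, Kcnmb1, Kcnk2, Kcnk18 and Kcnq5, all higher with EGF, and Kcnn3, which was lower. In Cic+/+ they were Kcnip1, Kcnmb1, Kcnc1, Kcnv1 and Kcnj2, all higher with EGF, and Kcnn3 and Kcnj10, which were lower. With the clone as a fixed term in the arrays of 1 genotype, Kcnk2, Kcnk18 and Kcnq5 no longer passed in Cic-/- (adjusted p = 0.0684, 0.069 and 0.146) and Kcnmb1 no longer passed in Cic+/+ (0.0523). At an unadjusted p under 0.05 stood 20 members in Cic-/- (23.8%, beside 9.80% of all genes) and 12 in Cic+/+ (14.3%, beside 12.5%).

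**Figure D1:**
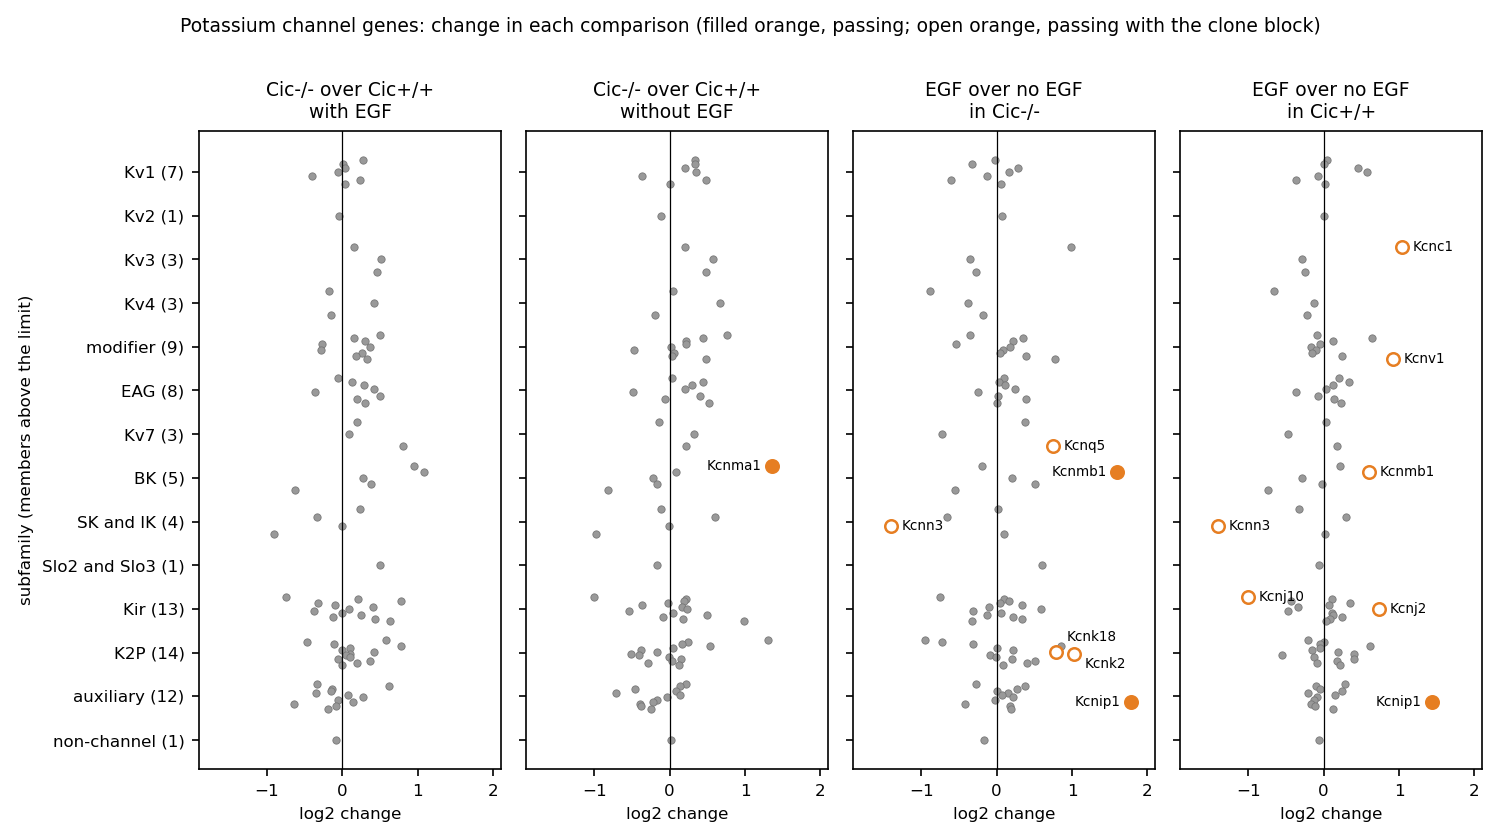
Log2 change of the 84 members above the limit in each comparison (x axis), by subfamily (y axis, with the number of members). Filled orange points pass at an adjusted p under 0.05, open orange points pass only with the clone as a block, and grey points pass in neither. Kcnma1 is the 1 filled point of the genotype comparisons, and Kcnip1 is filled in both EGF comparisons.

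All clones of a genotype moved the same way with EGF for 35 members in Cic-/-, beside 36.8% of all genes, with 21 higher (beside 18.2%) and 14 lower (beside 18.6%). In Cic+/+ this held for 19 members, beside 28.9% of all genes, with 12 higher (beside 13.8%) and 7 lower (beside 15.1%). In all 7 clones Kcnc1, Kcnip1, Kcnk13, Kcnmb1 and Kcnv1 were higher with EGF, and Kcnd1, Kcnmb4, Kcnn3 and Kcnq3 were lower, beside 6.04% and 7.43% of all genes. The difference between the EGF effects of the genotypes (Cic-/- minus Cic+/+) passed for 0 of 84 members in limma, beside 0.00576% of all genes, and for 0 of 84 with the block, beside 0.0403%. At an unadjusted p under 0.05 it stood for 4 members, Kcnk10, Kcnk18, Kcnmb1 and Kcnn2 (4.76%, beside 2.86% of all genes).

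Promoter windows are shown for the members that passed without a block, Kcnma1, Kcnip1 and Kcnmb1, and for Kcnj10, whose window holds a match close to the start. They come from RefSeq (GRCm38.p6) and run from 250 bases before to 50 bases after a gene start, and 70 of the 91 members were in that table. Capicua is known to bind the octamers TGAATGAA, TGAATGGA, TCAATGAA and TCAATGGA, and capitals mark a match on either strand.
Kcnma1, chr14:24004156-24004455, minus strand: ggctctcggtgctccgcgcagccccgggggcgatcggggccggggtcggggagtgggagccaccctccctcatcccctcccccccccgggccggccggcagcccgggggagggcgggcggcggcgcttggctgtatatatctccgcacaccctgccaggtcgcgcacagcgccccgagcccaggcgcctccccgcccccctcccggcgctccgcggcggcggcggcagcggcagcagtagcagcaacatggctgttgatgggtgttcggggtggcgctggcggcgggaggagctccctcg
Kcnip1, chr11:33843637-33843936, minus strand: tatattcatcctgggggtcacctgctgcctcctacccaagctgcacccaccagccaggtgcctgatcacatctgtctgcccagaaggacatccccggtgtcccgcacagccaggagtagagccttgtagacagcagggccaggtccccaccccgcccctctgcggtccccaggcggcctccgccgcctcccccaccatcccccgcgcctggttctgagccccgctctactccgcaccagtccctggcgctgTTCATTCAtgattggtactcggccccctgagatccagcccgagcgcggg
Kcnmb1, chr11:33962763-33963062, plus strand: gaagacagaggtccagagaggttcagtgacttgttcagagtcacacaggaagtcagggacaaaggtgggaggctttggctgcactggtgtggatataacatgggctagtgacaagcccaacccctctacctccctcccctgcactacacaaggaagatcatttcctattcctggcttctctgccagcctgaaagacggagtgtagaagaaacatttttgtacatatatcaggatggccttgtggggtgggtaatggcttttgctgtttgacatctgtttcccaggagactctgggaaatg
Kcnj10, chr1:172340960-172341259, plus strand: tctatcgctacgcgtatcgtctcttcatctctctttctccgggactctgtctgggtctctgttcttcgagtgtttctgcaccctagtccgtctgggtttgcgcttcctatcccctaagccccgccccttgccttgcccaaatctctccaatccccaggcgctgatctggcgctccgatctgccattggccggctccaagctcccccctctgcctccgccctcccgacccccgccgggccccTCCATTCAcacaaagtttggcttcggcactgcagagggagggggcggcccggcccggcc
At least 1 of the 4 octamers stood in 4 of 95 member windows (4.21%), beside 3.84% of the 32851 windows of all genes. The matches in Kcnip1 (1 of its 3 windows, TGAATGAA on the opposite strand from base 2 after the start) and in Kcnj10 (TGAATGGA on the opposite strand, from base -9) are shown. The others were in Kcnip4 (TCAATGAA) and Kcns3 (TGAATGGA). The windows of Kcnma1 and Kcnmb1 hold none of these letters. A match is a description of the letters and not a binding site.

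Among the calcium-activated channels, Kcnma1 separated the genotypes, with all Cic-/- arrays above all Cic+/+ arrays. Its level with EGF was 9.39, 9.61 and 9.32 in clones 5 to 7, against 8.83, 8.26, 8.33 and 8.56 in clones 1 to 4. Cultures lacking EGF had 10.19, 9.41 and 9.31 in clones 5 to 7, against 8.48, 8.56, 8.19 and 7.86 in clones 1 to 4. Clone 5 without EGF was the highest array and clone 4 without EGF the lowest, and the genotypes did not overlap in either medium. The change was 0.94 ± 0.23 with EGF, which did not pass (adjusted p = 0.121), and 1.36 ± 0.23 without EGF, which passed (adjusted p = 0.0116). Its probesets agreed, since 30 of 32 were higher by more than 0.5 in Cic-/- in each medium. The call without EGF was lost without clone 3 (adjusted p = 0.0649), clone 4 (0.0643) or clone 5 (0.0505), with changes between 1.09 and 1.34, and in a fit of the arrays without EGF alone (adjusted p = 0.12). The EGF difference of Kcnma1 was -0.20 ± 0.24 in Cic-/- (adjusted p = 0.871), against 0.22 ± 0.21 in Cic+/+ (adjusted p = 0.736).

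Markers of other cells differed between the same arrays. Without EGF the mean level of 8 myelinating oligodendrocyte markers lay between 5.82 and 6.04 in Cic-/- and between 7.43 and 7.92 in Cic+/+. Of these 8, 5 passed as lower in Cic-/-, beside 0.426% of all genes. The 9 mitosis markers lay between 8.20 and 9.63 in Cic-/- and between 9.64 and 9.72 in Cic+/+, with none passing. With EGF the mitosis markers lay between 8.27 and 9.497 in Cic-/- and between 9.73 and 10.51 in Cic+/+, again with none passing, and their median change was -1.02. The myelin markers lay between 5.56 and 5.90 in Cic-/- and between 6.03 and 6.37 in Cic+/+ with EGF. There 1 of 8 passed as lower, beside 0.242% of all genes. The 6 oligodendrocyte progenitor markers lay between 8.82 and 9.25 in Cic-/- and between 9.73 and 10.25 in Cic+/+ with EGF. Of these 6, 1 passed as lower. The part of these lists in the Kcnma1 difference was not tested.

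Of the BK beta subunits, which tune how calcium opens the channel, Kcnmb1 passed for EGF in Cic-/-. Kcnmb1 with EGF stood at 5.90, 5.78 and 6.12 in clones 5 to 7, against 4.43, 4.32 and 4.25 in the same clones without EGF. In clones 1 to 4 it stood at 5.33, 4.78, 5.13 and 4.19 with EGF, against 4.31, 4.17, 4.53 and 3.99 without. Every clone was higher with EGF, the media did not overlap in Cic-/-, and without EGF both group means (4.33 in Cic-/- and 4.25 in Cic+/+) lay under the limit. The EGF change was 1.60 ± 0.24 in Cic-/- (adjusted p = 0.0151, and 0.00105 with the clone as a block). In Cic+/+ it was 0.61 ± 0.21 (adjusted p = 0.221, and 0.0464 with the block). The call without a block in Cic-/- was lost with the mean of the probesets (0.82 ± 0.17, adjusted p = 0.058). It was also lost on leaving out clone 5, 6 or 7 (adjusted p = 0.112, 0.252 and 0.0924, with changes between 1.47 and 1.67). Kcnmb1 was thus above the limit through its arrays with EGF, so the limit itself favoured a difference between the media. With EGF the genotypes did not overlap (1.08 ± 0.23, adjusted p = 0.0671). The difference between the EGF effects was 0.99 ± 0.32, the largest among the members (unadjusted p = 0.00776, adjusted p = 1.00). It was -0.35 ± 0.33 at the brightest probeset (adjusted p = 1.00), and it rests on levels without EGF under the limit in both genotypes.

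The 5 probesets of Kcnmb1 disagreed. In Cic-/- 3 of them rose by more than 0.5, and the brightest was 0.01 ± 0.25 higher with EGF (adjusted p = 0.996). Kcnmb1 lies within the span of Kcnip1 on chromosome 11, on the opposite strand, and the sources used here do not give the strand that the probes read. Whether these probesets read both genes was not tested.

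Kcnmb4, the BK beta subunit best known from brain, was lower with EGF in every clone, by -0.55 ± 0.33 in Cic-/- (adjusted p = 0.662), against -0.73 ± 0.29 in Cic+/+ (adjusted p = 0.295), without passing. Its level without EGF was 6.77, 6.75 and 6.20 in clones 5 to 7, below the 6.99, 8.10, 7.26 and 7.19 of clones 1 to 4 (-0.81 ± 0.31, adjusted p = 0.339).

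**Figure D2:**
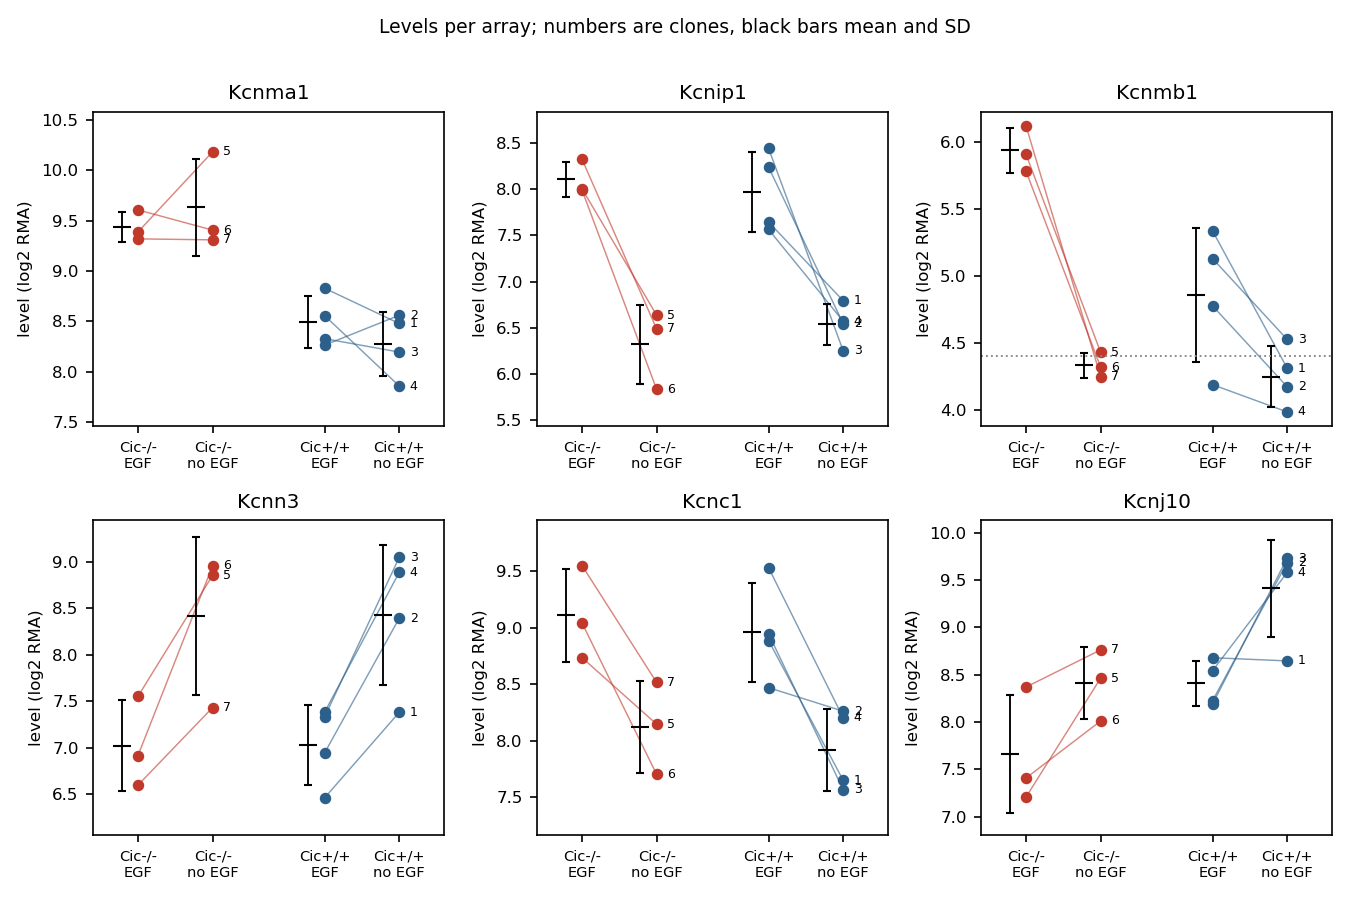
Log2 RMA level (y axis) of 6 members in every array, with the groups on the x axis. Points are arrays, lines join the 2 arrays of a clone, numbers are clones, black bars are the group mean ± SD, and the dotted line for Kcnmb1 is the limit of 4.40. Kcnma1 separates the genotypes, and Kcnip1 separates the media in both genotypes.

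Of the small- and intermediate-conductance calcium-activated channels (SK and IK), which calmodulin opens on calcium binding, Kcnn3 was lower with EGF in all 7 clones. With EGF it lay at 7.55, 6.92 and 6.60 in clones 5 to 7, against 8.86, 8.96 and 7.43 in the same clones without EGF. In clones 1 to 4 the level was 6.46, 6.94, 7.33 and 7.38 with EGF, against 7.38, 8.39, 9.05 and 8.89 without. Clone 7 in Cic-/- and clone 1 in Cic+/+ were the lowest in both media, so the media overlapped in both genotypes although each clone was lower with EGF. The change was -1.40 ± 0.46 in Cic-/- (adjusted p = 0.296), against -1.40 ± 0.40 in Cic+/+ (adjusted p = 0.132). With the clone as a block it passed in both (adjusted p = 0.0482 in Cic-/- and 0.0154 in Cic+/+). All 9 probesets were lower with EGF in both genotypes. Between the genotypes it differed by -0.01 ± 0.43 in either medium.

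Kcnn4, the intermediate-conductance channel, had no overlap between the genotypes in either medium, with Cic-/- the lower, and did not pass. With EGF it lay at 5.95, 5.58 and 5.84 in clones 5 to 7, against 6.46, 6.02, 6.25 and 8.07 in clones 1 to 4. The medium without EGF gave 5.76, 5.20 and 6.13 in clones 5 to 7, against 6.74, 6.22, 6.24 and 7.51. Clone 4, which stands apart in Xist, was the highest array in both media. The changes were -0.91 ± 0.43 with EGF (adjusted p = 0.481) and -0.98 ± 0.43 without EGF (adjusted p = 0.431). Without clone 4 they were -0.45 ± 0.24 with EGF (adjusted p = 0.62) and -0.70 ± 0.24 without EGF (adjusted p = 0.36).

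Kcnn2, another SK channel, was lower with EGF in each Cic-/- clone, by -0.21, -0.63 and -1.13 in clones 5 to 7, and higher in each Cic+/+ clone, by 0.25, 0.13, 0.50 and 0.29 in clones 1 to 4. The difference between the effects was -0.95 ± 0.43 (unadjusted p = 0.0438, adjusted p = 1.00). The 16 probesets were split, 8 of them sharing the sign of the gene value in Cic+/+ and 12 in Cic-/-. Kcnt1, a sodium-activated channel, was 0.61 ± 0.27 higher with EGF in Cic-/- and differed by -0.06 ± 0.23 in Cic+/+, with neither passing (adjusted p = 0.454 and 0.952). Kcnt2, its relative, lay below the limit and was not tested.

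Of the Kv1 to Kv4 pore subunits none passed without a block, and Kcnc1 passed with it in Cic+/+. Kcnc1 encodes a Kv3 channel, a family that repolarises fast-firing neurons. It stood with EGF at 8.74, 9.04 and 9.55 in clones 5 to 7, against 8.15, 7.70 and 8.52 in the same clones without EGF. In clones 1 to 4 it stood at 8.89, 8.47, 8.95 and 9.53 with EGF, against 7.65, 8.26, 7.57 and 8.20 without. The media did not overlap in either genotype, and clone 2 had the smallest difference, 0.21. The change was 0.99 ± 0.30 in Cic-/- (adjusted p = 0.25, and 0.0517 with the clone block) and 1.04 ± 0.26 in Cic+/+ (adjusted p = 0.0857, and 0.0131 with the block). All 9 probesets were higher with EGF in both genotypes, and 8 of the 9 by more than 0.5.

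The 7 Kv1 members above the limit, delayed-rectifier or transient subunits related to Shaker, had median genotype changes of 0.03 with EGF and 0.34 without, and none passed in any comparison. With EGF, Cic-/- minus Cic+/+ was 0.27 ± 0.43 for Kcna1 and -0.40 ± 0.27 for Kcna4 (adjusted p = 0.877 and 0.636). The Kcna4 mean in Cic-/- with EGF, 4.32, lay under the limit. Kcna2 was 0.46 ± 0.25 higher with EGF in Cic+/+ (adjusted p = 0.481), and higher in each of those clones, while clones 5 to 7 gave -0.06, 1.04 and -0.12. Kcna3 was 0.58 ± 0.45 higher with EGF in Cic+/+ (adjusted p = 0.654), also in each clone, and its level in clone 7 was lower than in any other clone in both media (5.25 with EGF and 5.32 without). Kcna6 gave -0.60 ± 0.37 with EGF in Cic-/- and -0.36 ± 0.32 in Cic+/+ (adjusted p = 0.669 and 0.704).

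The 3 Kv4 members, which carry the transient A-type current and bind Kcnip proteins, were all lower with EGF in both genotypes by their group means, and none passed. Kcnd1 differed by -0.88 ± 0.28 in Cic-/- (adjusted p = 0.274, and 0.0513 with the clone block) and by -0.66 ± 0.24 in Cic+/+ (adjusted p = 0.259, and 0.0562 with the block). Its gene value was lower in all 7 clones, with differences of -1.16 to -0.45 in Cic-/- and -1.09 to -0.36 in Cic+/+. At its brightest probeset the EGF change was only -0.09 ± 0.14 in Cic-/- and -0.10 ± 0.13 in Cic+/+ (adjusted p = 0.927 and 0.822). Clone 1 was higher with EGF there (7.57, against 7.41 without). Of its 10 probesets, 4 were lower by more than 0.5 in Cic-/- and 1 higher by more than 0.5. In Cic+/+ 6 were lower by more than 0.5. The 10 probesets also disagreed in the genotype comparisons. At the brightest, Cic-/- exceeded Cic+/+ by 0.70 ± 0.14 with EGF (adjusted p = 0.0482) and by 0.69 ± 0.14 without (adjusted p = 0.0471). The median of the probesets gave -0.17 ± 0.26 and 0.04 ± 0.26 in those comparisons. Kcnd1 and the auxiliary gene Kcne1l lie on the X chromosome, of which clone 4 had the Xist level given above. Kcnd2 was higher in every Cic-/- array without EGF, at 11.65, 11.72 and 11.28 in clones 5 to 7, against 10.63, 10.91, 11.13 and 10.89 in clones 1 to 4 (0.66 ± 0.21, adjusted p = 0.233). Kcnd3 differed by -0.16 ± 0.27 between the genotypes with EGF and -0.19 ± 0.27 without.

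Kcnv1 is 1 of the modifier subunits, which form no channel alone and alter Kv2 channels. It was higher with EGF in every clone, at 7.85, 8.23 and 7.40 in clones 5 to 7, against 7.14, 6.79 and 7.24 without EGF. In clones 1 to 4 the levels were 7.53, 8.08, 7.25 and 7.13 with EGF, against 6.84, 6.63, 6.73 and 6.10 without. The media did not overlap in either genotype, although clone 7 differed by 0.17 alone. The change was 0.77 ± 0.27 in Cic-/- (adjusted p = 0.328, and 0.0987 with the clone block) and 0.92 ± 0.24 in Cic+/+ (adjusted p = 0.0904, and 0.019 with the block). Kcnf1, another modifier, was 0.76 ± 0.24 higher in Cic-/- without EGF (adjusted p = 0.224), with no overlap.

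The 8 ether-a-go-go members (Kcnh), the family of the cardiac repolarising channel Kcnh2, differed between -0.37 and 0.50 with EGF and between -0.48 and 0.53 without EGF across the genotypes. None passed, and Kcnh2 itself was 0.44 ± 0.19 higher in Cic-/- without EGF (adjusted p = 0.421). Of the 3 Kv7 members, the family of the M-current that restrains neuronal firing, Kcnq5 was higher with EGF in each Cic-/- clone. It lay at 8.22, 7.95 and 8.02 in clones 5 to 7 with EGF, against 7.11, 7.08 and 7.73 in the same clones without EGF. The Cic+/+ clones 1 to 4 had 7.51, 7.19, 7.23 and 7.12 with EGF, against 7.33, 6.63, 7.12 and 7.26 without. The 3 Cic-/- arrays with EGF were the highest of all 14, followed by clone 7 without EGF. The EGF change was 0.75 ± 0.21 in Cic-/- (adjusted p = 0.214, and 0.0435 with the clone block) and 0.18 ± 0.18 in Cic+/+ (adjusted p = 0.76). The difference of the effects, 0.57 ± 0.28, did not pass (adjusted p = 1.00). Kcnq3 was lower with EGF in all 7 clones, by -0.72 ± 0.28 in Cic-/- and -0.47 ± 0.24 in Cic+/+ (adjusted p = 0.397 and 0.459).

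**Figure D3:**
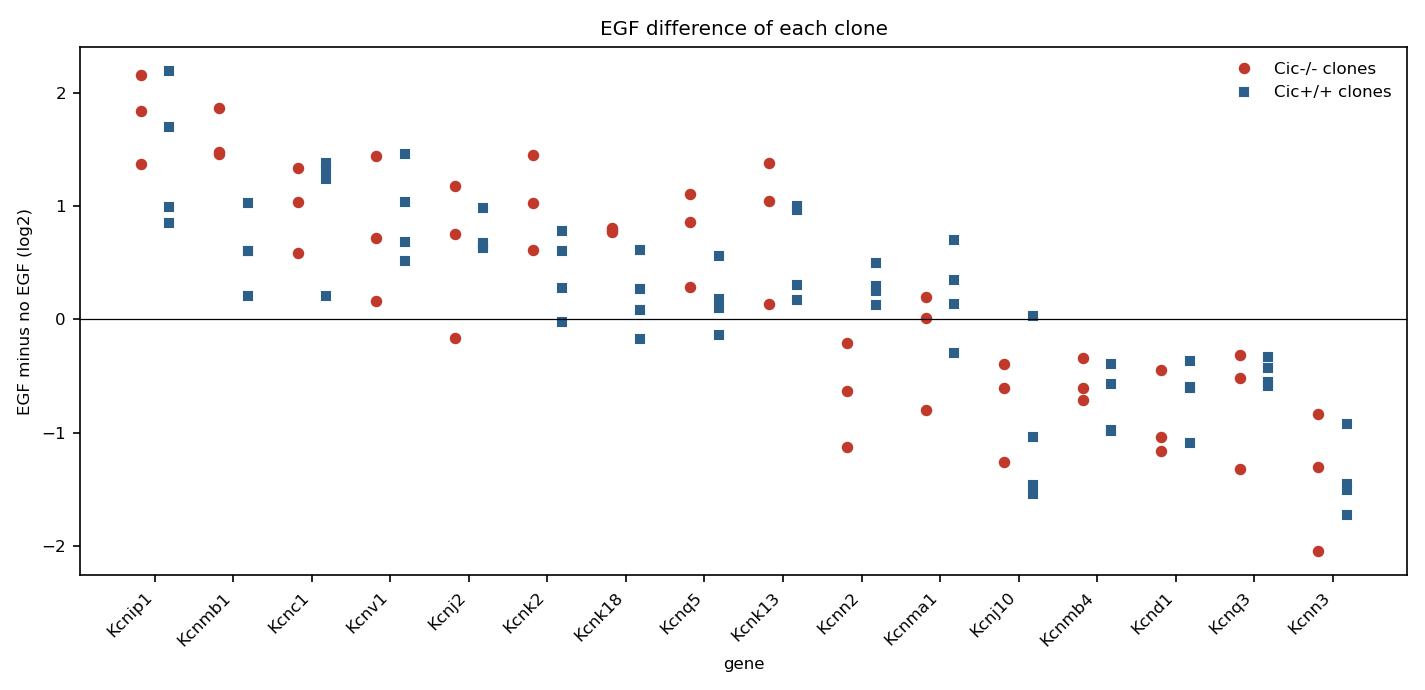
Log2 level with EGF minus that without EGF (y axis) in each clone, for 16 members (x axis). Red circles are the 3 Cic-/- clones and blue squares the 4 Cic+/+ clones. Kcnip1 lies between 0.85 and 2.19 in all 7 clones, and Kcnn3 between -2.05 and -0.84.

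Among the inward rectifiers, Kcnj10 (Kir4.1), the main potassium channel of astrocytes, was lower with EGF in 6 of 7 clones. It lay at 7.21, 7.41 and 8.37 in clones 5 to 7 with EGF, against 8.46, 8.01 and 8.76 in the same clones without EGF. In clones 1 to 4 it lay at 8.68, 8.23, 8.19 and 8.54 with EGF, against 8.65, 9.68, 9.73 and 9.58 without. Clone 1 was the exception, with a difference of 0.03, and without EGF it lay far below the other 3 Cic+/+ clones. The change was -0.75 ± 0.33 in Cic-/- (adjusted p = 0.456), against -1.001 ± 0.28 in Cic+/+ (adjusted p = 0.132, and 0.0296 with the clone as a block). Without clone 1 the Cic+/+ change was -1.35 ± 0.28 and passed without a block (adjusted p = 0.0483). Kcnj10 was also lower in Cic-/- by -0.75 ± 0.31 with EGF and -0.998 ± 0.31 without, neither passing (adjusted p = 0.397 and 0.208). Kcnj16, which joins Kcnj10 in mixed channels, differed by -0.11 ± 0.21 with EGF in Cic-/- and -0.34 ± 0.18 in Cic+/+ (adjusted p = 0.926 and 0.468).

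Markers of other cells also differed between the media. The mean level of the 7 astrocyte markers lay between 9.02 and 9.24 with EGF and between 9.69 and 9.98 without EGF in Cic-/-, and none passed. In Cic+/+ it lay between 8.73 and 9.63 with EGF and between 10.07 and 10.57 without EGF. There 3 of the 7 passed as lower with EGF, beside 0.593% of all genes, and the median change was -0.88. The 8 myelinating oligodendrocyte markers in Cic+/+ lay between 6.03 and 6.37 with EGF and between 7.43 and 7.92 without EGF. Of these 8, 5 passed as lower with EGF. In Cic-/- the 6 oligodendrocyte progenitor markers lay between 8.82 and 9.25 with EGF and between 9.69 and 10.48 without EGF. In Cic+/+ they lay between 9.73 and 10.25 with EGF and between 10.33 and 10.67 without EGF. In each genotype 1 of 6 passed as lower with EGF, beside 0.0921% of all genes in Cic-/- and 0.593% in Cic+/+. Their median change was -0.70 in Cic-/- and 0.01 in Cic+/+. The part of these lists in the EGF differences of Kcnj10 and the other members was not tested.

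Kcnj2 (Kir2.1), which stabilises the resting potential, was higher with EGF in all 4 Cic+/+ clones, at 5.56, 5.92, 5.54 and 5.65, against 4.92, 4.93, 4.91 and 4.97 without EGF. These arrays lay close together within each medium and did not overlap. In Cic-/- it stood at 5.91, 6.18 and 5.15 with EGF, against 5.16, 5.00 and 5.32 without, and clone 7 went the other way. The change was 0.59 ± 0.21 in Cic-/- (adjusted p = 0.344), against 0.73 ± 0.18 in Cic+/+ (adjusted p = 0.089, and 0.0225 with the clone as a block). Kcnj12, Kcnj8 and Kcnj9 did not pass in any comparison. Kcnj9, a G protein-gated rectifier, was 0.99 ± 0.29 higher in Cic-/- without EGF (adjusted p = 0.186), while its brightest probeset gave 0.15 ± 0.15 (adjusted p = 0.781). Kcnj12, whose Cic+/+ mean with EGF (4.38) lay just under the limit, was 0.78 ± 0.27 higher in Cic-/- with EGF (adjusted p = 0.284). Its brightest probeset gave -0.0040 ± 0.21 there (adjusted p = 0.997). Kcnj8, the pore of vascular KATP channels, was 0.44 ± 0.20 higher there (adjusted p = 0.476).

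Of the 14 K2P leak channels, Kcnk2 (TREK-1), which stretch and lipids open, was higher with EGF in each Cic-/- clone. It stood at 8.40, 7.93 and 7.52 in clones 5 to 7 with EGF, against 6.95, 6.91 and 6.91 in the same clones without EGF. The Cic+/+ clones 1 to 4 stood at 8.29, 7.58, 8.13 and 7.39 with EGF, against 7.51, 6.97, 7.86 and 7.41 without. The media did not overlap in Cic-/- and overlapped in Cic+/+, and without EGF the Cic-/- arrays lay just below all Cic+/+ arrays. The EGF change was 1.03 ± 0.28 in Cic-/- (adjusted p = 0.183, and 0.0262 with the clone block) and 0.41 ± 0.24 in Cic+/+ (adjusted p = 0.524). The difference of the effects was 0.62 ± 0.36 (adjusted p = 1.00), and 9 of 11 probesets in Cic-/- rose by more than 0.5, against 1 in Cic+/+.

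Kcnk18 (TRESK), best known from sensory neurons, differed by 0.77, 0.81 and 0.79 in clones 5 to 7 with EGF, against -0.17, 0.27, 0.08 and 0.61 in clones 1 to 4. Its levels lay close to the limit, between 4.57 and 5.94. The change was 0.79 ± 0.20 in Cic-/- (adjusted p = 0.147, and 0.021 with the clone block) and 0.20 ± 0.17 in Cic+/+ (adjusted p = 0.702). Kcnk1 (TWIK-1) was 1.31 ± 0.44 higher in Cic-/- without EGF (adjusted p = 0.253), at 9.45, 7.51 and 7.55 in clones 5 to 7, against 6.49, 7.11, 6.63 and 7.21 in clones 1 to 4. The genotypes did not overlap there, and clone 5 stood far above the others. Without clone 5 the change of Kcnk1 was 0.67 ± 0.24 (adjusted p = 0.302). Kcnk10 (TREK-2) gave -0.72 ± 0.25 with EGF in Cic-/- and 0.0049 ± 0.22 in Cic+/+, with neither passing (adjusted p = 0.325 and 0.997).

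Among the 12 auxiliary members, Kcnip1 had the strongest EGF difference of all members. With EGF it stood at 8.01, 7.99 and 8.32 in clones 5 to 7, against 6.64, 5.84 and 6.49 in the same clones without EGF. In clones 1 to 4 it stood at 7.64, 8.24, 8.44 and 7.57 with EGF, against 6.79, 6.55, 6.25 and 6.57 without. The media did not overlap in either genotype, and clones 1 and 4 had the smallest differences (0.85 and 0.99). The change was 1.79 ± 0.26 in Cic-/- (adjusted p = 0.0151, and 0.00165 with the clone block), against 1.43 ± 0.22 in Cic+/+ (adjusted p = 0.00734, and 0.00106 with the block). Of its 16 probesets, 11 were higher by more than 0.5 in each genotype. The call without a block in Cic-/- was lost on leaving out any of clones 5, 6 or 7 (adjusted p = 0.0625, 0.239 and 0.067). That in Cic+/+ was lost without clone 2 or 3 (0.106 and 0.0856). The changes then lay between 1.18 and 2.00. With the brightest probeset neither call was kept: the change was then 1.33 ± 0.35 in Cic-/-, at an adjusted p of 0.227, against 1.47 ± 0.31 in Cic+/+, at an adjusted p of 0.0504. With the mean of the probesets the change in Cic-/- was 0.91 ± 0.20 (adjusted p = 0.0772). Between the genotypes Kcnip1 differed by 0.13 ± 0.24 with EGF and by -0.22 ± 0.24 without (adjusted p = 0.897 and 0.816), and the EGF effects differed by 0.36 ± 0.34 (adjusted p = 1.00). Its brightest probeset gave genotype differences of 0.49 ± 0.33 with EGF and 0.63 ± 0.33 without (adjusted p = 0.633 and 0.515). In each medium 6 of the 16 probesets shared the sign of the gene value between the genotypes.

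The EGF differences of the other auxiliary members lay between -0.42 and 0.38 in Cic-/- and between -0.21 and 0.29 in Cic+/+. Between the genotypes, Kcnip2, close to the limit, was -0.65 ± 0.24 in Cic-/- relative to Cic+/+ with EGF (adjusted p = 0.332). The Kcnip2 mean in Cic-/- with EGF, 3.89, lay under the limit. Kcnip3, also known as a transcriptional repressor, differed between the genotypes by -0.08 ± 0.20 with EGF and -0.38 ± 0.20 without (adjusted p = 0.926 and 0.538). Kcnab2, a Kv1 beta subunit, was higher in every Cic-/- array with EGF, at 7.62, 7.67 and 8.37 in clones 5 to 7, against 7.61, 7.16, 6.95 and 7.35 in clones 1 to 4. The distance from clone 1 was small, and the change of 0.62 ± 0.22 did not pass (adjusted p = 0.301) and was 0.38 ± 0.19 without clone 7 (adjusted p = 0.481). Kcnab1 gave an EGF change of -0.27 ± 0.27 in Cic-/- and 0.29 ± 0.24 in Cic+/+, with a difference of -0.56 ± 0.36 (adjusted p = 1.00). The Kcnab1 mean in Cic-/- with EGF, 4.38, lay just under the limit. Kcne1l differed between the genotypes by -0.71 ± 0.40 without EGF (adjusted p = 0.568), with clone 6 the lowest in both media and -0.39 ± 0.35 without it (adjusted p = 0.839). Kcnq1ot1, an RNA that encodes no protein, was read by 1 probeset and differed most, by -0.16 ± 0.20, with EGF in Cic-/- (adjusted p = 0.868).

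**Figure D4:**
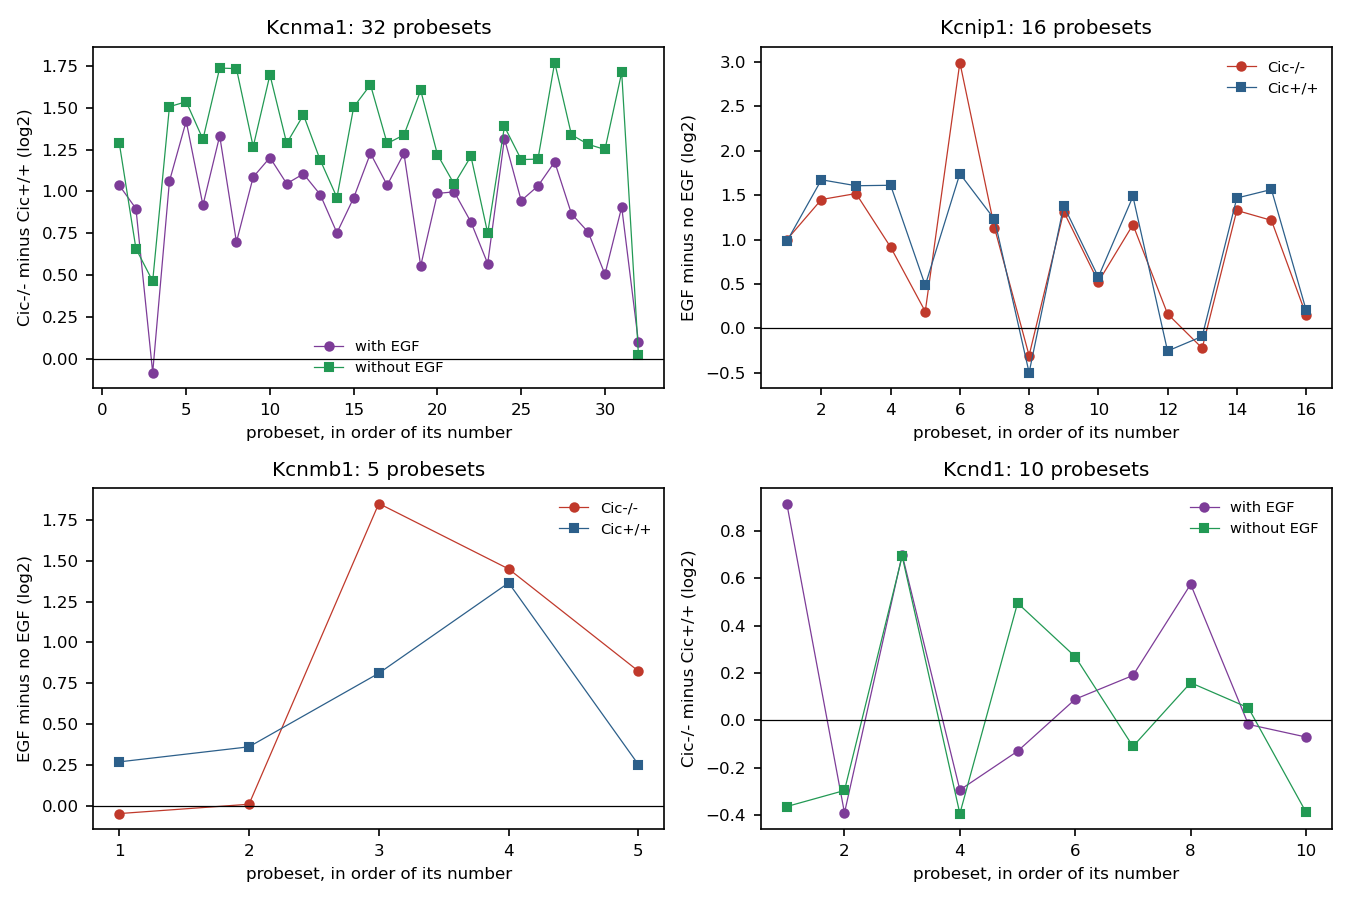
Log2 difference (y axis) at each probeset of 4 members, in order of probeset number (x axis). Kcnma1 and Kcnd1 show Cic-/- minus Cic+/+ with EGF (purple circles) and without EGF (green squares), and Kcnip1 and Kcnmb1 show EGF minus no EGF in Cic-/- (red circles) and Cic+/+ (blue squares). For Kcnma1 30 of 32 probesets exceed 0.5 in both media, while the 5 probesets of Kcnmb1 and the 10 of Kcnd1 disagree.

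Of 37 further potassium-handling genes outside the Kcn symbols (the sodium pump, cotransporters, channel partners and aquaporin), 29 were above the limit. None passed in either genotype comparison, and their median change was 0.11 with EGF and 0.07 without, beside 0.02 and -0.00311 over all genes. With EGF 1 of 29 passed as lower in Cic-/-, beside 0.0921% of all genes. In Cic+/+ 2 of 29 passed as lower, beside 0.593% of all genes, and none passed as higher in either genotype. The median EGF change of the list was 0.03 in Cic-/- and -0.10 in Cic+/+, beside 0.01 and -0.00215 over all genes. The 1 in Cic-/- was Dpp10, a partner of Kv4 channels, which averaged 5.77 ± 0.74 with EGF and 7.97 ± 0.50 without EGF (SD, n = 3, limma change -2.20 ± 0.35, adjusted p = 0.0183). In Cic+/+ Dpp10 differed by -1.05 ± 0.30 (adjusted p = 0.138, and 0.0225 with the clone as a block). The 2 in Cic+/+ were Aqp4, the water channel of astrocyte endfeet, and Fxyd1, a regulator of the sodium pump. Aqp4 averaged 6.94 ± 0.60 with EGF and 9.22 ± 0.46 without EGF (SD, n = 4, limma change -2.28 ± 0.32, adjusted p = 0.00379). Fxyd1 averaged 5.51 ± 0.53 with EGF and 7.47 ± 0.46 without EGF (SD, n = 4, limma change -1.96 ± 0.29, adjusted p = 0.00579). In Cic-/- Aqp4 differed by -1.72 ± 0.37 (adjusted p = 0.0758, and 0.00713 with the clone as a block). Fxyd1 differed by -1.19 ± 0.33 there (adjusted p = 0.214, and 0.0533 with the block). Aqp4 is also 1 of the 7 astrocyte markers given above. With the clone as a block 2 of 29 passed as lower in Cic-/- (beside 1.08% of all genes) and 4 of 29 in Cic+/+ (beside 3.20%).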

How the data were processed

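The deposited values are log2 probeset levels that the authors made with RMA, per the submitters' processing notes, from total RNA labelled for Affymetrix whole-transcript arrays. Neither the RMA version nor the build behind the array annotation is stated. Of 269751 probesets, 233753 named 1 gene, 5106 several and 30892 none, and only the first kind was used. A gene took the median of its probesets on each array. The lowest 25% of genes by mean level were left out, which left 17364 genes.

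The fit used limma (version 3.58.1, R 4.3.3, tables read by data.table in its version 1.17.8, and Python 3.11.15, pandas 2.3.3 and matplotlib 3.10.9 for sequences and figures) and had 10 residual and 4.06 prior degrees of freedom. Adjusted p values run over all 17364 genes. The labels give both cultures of an animal the same clone number, which pairs them. Deviations from the group mean correlated within a clone between 0.156 and 0.616, and the consensus correlation of the block was 0.348. The procedure was tested on simulated data. The alternatives were another gene value (mean or brightest probeset), no or a 50% limit, arrays centred or quantile normalized, a trended robust prior, the clone block, only the arrays compared, a 1.5-fold minimum, probesets shared between genes and each clone left out.

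The members, lists and tests were chosen with earlier results of these data known. Named in the text are members that passed in any comparison, with or without the random block. The 4 largest rises and falls of each comparison and a list of 32 genes are named too. Of these 32, 29 had a value of their own and the rest are not analysed here. Kcnk13 is named outside that rule, to complete the count of members with 1 sign in all clones. Kcnip4 and Kcns3 are named for their promoter match, and the other genes outside it, below the limit, complete the account of the members.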

Additional observations from a re-analysis of the deposited data

Results flagged for a closer look

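Of 78 groups of 4 arrays checked, 3 held an array far from the other 3. Chance gives about 1 in 20 groups, so these 3 are no more than chance gives. Only the Cic+/+ groups hold 4 arrays, so no Cic-/- group was checked. Kcne1l in Cic+/+ with EGF had 7.81 in clone 3, against 8.17 to 8.24 in the other clones. Kcnj10 in Cic+/+ without EGF had 8.65 in clone 1, against 9.58 to 9.73 in the others. Kcnk18 in Cic+/+ with EGF had 4.99 in clone 1, against 5.20 to 5.24.

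Kcnn2 was singled out because every Cic-/- clone was lower with EGF and every Cic+/+ clone higher. The share of all genes with this pattern was not counted. Over all genes, 18.6% were lower with EGF in all Cic-/- clones and 13.8% higher in all Cic+/+ clones. The difference of the EGF effects of Kcnn2 was -0.95 and did not pass in limma (adjusted p = 1.00).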

How the results depend on the processing

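Only 45 gene values were set beside alternatives, which gave 791 values of single members. Of these 791, 748 kept their direction and their side of the threshold, 17 lost a call, 24 gained one and 2 reversed. The reversals came with the brightest probeset, for Kcnj12 in Cic-/- over Cic+/+ with EGF (-0.0040, adjusted p = 0.997) and for the difference of the EGF effects of Kcnmb1 (-0.35, adjusted p = 1.00). The brightest probeset changed the sign of values outside that count too. In Cic-/- over Cic+/+, Kcnd1 with EGF went from -0.17 to 0.70 and Kcnip1 without EGF from -0.22 to 0.63. The cause of these sign changes was not tested. The number of members that passed with EGF between genotypes, 0, was 1 with the brightest probeset (Kcnd1) and 0 to 1 on leaving out a clone (Kcnmb1 without clone 1). Without EGF it was 1, and it was 2 with the brightest probeset, 0 with only the arrays compared and 0 to 2 on leaving out a clone. For EGF in Cic-/- it was 2, and it was 0 with the mean or the brightest probeset, 1 with the 50% limit, and 0 on leaving out clone 5, 6 or 7. Leaving out a clone gave 0 to 2 there. For EGF in Cic+/+ it was 1, and it was 4 with the mean, 0 with the brightest probeset and 0 to 2 on leaving out a clone. With the replicate block the paired counts were 6 (clone as random block) and 3 (fixed term) in Cic-/-, and 7 (random) and 9 (fixed term) in Cic+/+, and the replicate block moved no other count of members by over 1.5 times. Over all genes the random block moved the calls to 361 in Cic-/- against 33, and to 897 in Cic+/+ against 156. The share of all genes that passed with the fixed term is not given here, so its counts of 3 and 9 members have no comparison. The members that the fixed term added in Cic+/+ are not listed. Scaling moved the median of all genes by under 0.1. With 3 or 4 clones a group, the Cic-/- calls rest on few arrays.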
